A study of Mus musculus with 22 samples.

Results

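The 10 genes described here, B3galt5, Cldn14, Igsf5, Mrap, Kcne1, Tmprss2, Fam3b, Ripk4, Sim2 and Ripply3, lie on the chromosome 16 segment that Ts1Cje mice carry in 3 copies, and they are known mainly from epithelia and other tissues outside the brain. They were taken by name from that segment by where they are known to be expressed. No measured value entered that rule, but earlier results of these arrays were known when the list was drawn up. All 10 were measured, among 73 measured genes of the segment and 20239 tested genes. RNA was hybridised to Affymetrix mouse gene 1.0 ST arrays from the cerebral cortex and the hippocampus of 6 Ts1Cje females and 5 wild-type (WT) female littermates aged 8 to 10 weeks, which gave 22 arrays with both regions from every animal. In Ts1Cje mice the end of chromosome 16 is present once more, attached to chromosome 12, and the males of the line had been backcrossed to C57Bl/6J females. The WT littermates carry 2 copies of the segment. The added segment is in every cell and holds all 73 genes together, so no gene of it was tested alone. The question was where these genes stand on each array and whether their extra copy can be seen in either region.

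An epithelium is a sheet of cells that lines a surface or duct, and its cells are sealed by tight junctions, carry proteases and sugar-building enzymes at their surface and secrete into the space they line. In the brain, epithelial cells are found chiefly in the choroid plexus and the ependyma that lines the ventricles, while neurons and glia make up most of the tissue. A gene on 3 copies gives more RNA only in cells that transcribe it, and a microarray feature gives some signal from unrelated RNA even where its own RNA is missing.

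The listed genes have different roles. B3galt5 encodes a galactosyltransferase that extends sugar chains on lipids and proteins. Cldn14 encodes a claudin, a strand-forming tight junction protein, and Igsf5 encodes a junction adhesion protein that binds the scaffold Magi1. Mrap encodes the accessory protein that takes the corticotropin receptor Mc2r to the cell surface, and Kcne1 encodes a small subunit of the Kcnq1 potassium channel. Tmprss2 encodes a membrane serine protease, and Fam3b encodes a cytokine-like protein secreted by pancreatic islets. Ripk4 encodes a kinase of keratinocyte differentiation, and Sim2 and Ripply3 encode a transcription factor and a co-repressor of T-box factors.

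RefSeq start-site sequences of build GRCm38.p6 were at hand for 3 of the 10 genes, with 7 start windows in all, and are shown for B3galt5, which was the bright member of the list, and for Cldn14 and Tmprss2, which were dimmer than the median gene. Each sequence is the 250 bases before the annotated transcription start, 5′ to 3′ on the strand of the gene, in lower case with every CG in capitals. The B3galt5 windows on the plus strand were chr16:96235551-96235800 for the upstream start, chr16:96273263-96273512 for the middle start and chr16:96280782-96281031 for the downstream start, and the later starts lay 37712 and 45231 bases beyond the upstream start. The Cldn14 window was chr16:94008838-94009087 and the Tmprss2 window chr16:97611196-97611445, both on the minus strand.
B3galt5 upstream start: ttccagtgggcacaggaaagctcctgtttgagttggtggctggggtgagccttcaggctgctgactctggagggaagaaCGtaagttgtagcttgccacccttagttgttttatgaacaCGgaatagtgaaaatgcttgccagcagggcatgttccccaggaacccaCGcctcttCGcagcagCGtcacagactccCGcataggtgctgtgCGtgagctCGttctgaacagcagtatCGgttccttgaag
B3galt5 middle start: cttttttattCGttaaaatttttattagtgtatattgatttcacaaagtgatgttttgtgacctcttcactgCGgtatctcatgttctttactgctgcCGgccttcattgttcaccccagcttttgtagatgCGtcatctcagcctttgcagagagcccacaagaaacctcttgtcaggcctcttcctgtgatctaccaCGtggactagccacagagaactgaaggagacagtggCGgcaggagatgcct
B3galt5 downstream start: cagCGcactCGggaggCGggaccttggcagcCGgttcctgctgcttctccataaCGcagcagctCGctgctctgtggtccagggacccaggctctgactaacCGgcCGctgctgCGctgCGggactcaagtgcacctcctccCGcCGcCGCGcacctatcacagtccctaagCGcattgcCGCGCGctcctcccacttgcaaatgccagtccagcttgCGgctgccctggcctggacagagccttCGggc
Cldn14 upstream start: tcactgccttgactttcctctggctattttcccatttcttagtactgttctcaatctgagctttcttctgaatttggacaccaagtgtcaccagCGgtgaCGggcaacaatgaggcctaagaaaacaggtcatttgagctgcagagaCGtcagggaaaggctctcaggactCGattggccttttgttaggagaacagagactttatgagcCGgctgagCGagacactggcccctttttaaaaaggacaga
Tmprss2 start: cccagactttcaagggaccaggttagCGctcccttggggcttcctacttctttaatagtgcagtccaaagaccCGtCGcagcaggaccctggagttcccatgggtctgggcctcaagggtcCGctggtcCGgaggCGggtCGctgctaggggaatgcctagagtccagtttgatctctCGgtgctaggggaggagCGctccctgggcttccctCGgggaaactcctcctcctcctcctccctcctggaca

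The downstream start of B3galt5 held 20 CG pairs and a GC share of 67.2%, against 9 pairs for the upstream and 6 for the middle start. Its ratio of observed to expected CG pairs, which is the number of CG pairs times the length over the product of the C and G counts, was 0.726. The same ratio was 0.498 and 0.472 at the other B3galt5 starts, 0.424 at the Cldn14 start shown and 0.422 at the Tmprss2 start. A ratio of 0.6 was thus reached by 1 of the 7 windows of these 3 genes. It was reached by 45 of 52 windows of the other segment genes brighter than the median gene and by 10 of 19 windows of the dimmer ones. Among all tested genes it was reached by 47.56% of windows, with 66.55% for those brighter than the median gene and 24.25% for the dimmer. Of all 32851 windows 33.95% reached it. The motif TATAAA, searched on both strands, was in 0 of the 7 windows and in 12.4% of all windows. CACGTG, which reads the same on both strands, was in 1 of the 7, the middle start of B3galt5, and in 6.02% of all windows. The arrays give 1 value per gene and do not tell these starts apart, and a letter match is only a description of the window.

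The neuronal marker list fixed for the tissue check, with Snap25 and Camk2a as its brightest genes, was above the array median for 10 of 10 genes in each group. The cortical list had a mean level of 2.56 log2 units above the array median in WT cortex against 1.62 in WT hippocampus, and the hippocampal list 0.40 against 1.97, so both labelled regions carried their own markers. The deposited values are log2 signals, and a difference of 1 is a factor of 2 in signal. Array medians were 7.53 to 7.62 in cortex and 6.91 to 6.95 in hippocampus, and levels are therefore given as the log2 signal minus the median of the same array. Animal 60 of the WT group and animal 64 of the Ts1Cje group gave arrays that stood apart: the SD of all values on their cortex arrays was 1.86 and 1.95, against 2.17 to 2.22 on the other cortex arrays, and their dim genes were raised. The main results, and those that move most, are also given without these animals.

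The level of 9 of the 10 genes, averaged over a region, was below the array median in both regions, and 1 gene, B3galt5, was above it on 22 of 22 arrays. As a dim reference, 1294 olfactory and vomeronasal receptor genes were used, whose main site of expression is the nose. Signals of different features also depend on how well their probes bind, so these positions are not amounts of RNA and the order of the genes is an order of signals.

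Over both genotypes B3galt5 had a mean level of 1.26 ± 0.328 (SD, n = 11) above the array median in cortex and 1.74 ± 0.231 in hippocampus. These SDs also hold the difference between the genotypes. Its mean percentile among all genes tested was 70.0 in cortex and 78.2 in hippocampus, and it was brighter than the 95th percentile of the receptor genes on all 11 arrays of each region. The description of these genes as little expressed in brain thus did not hold for the signal of B3galt5. In WT the brightest receptor gene, Olfr1174, stood above B3galt5, at 1.59 against 0.99 in cortex and 1.65 against 1.55 in hippocampus. In Ts1Cje B3galt5 stood above the brightest receptor gene, at 1.49 against 1.37 in cortex and 1.90 against 1.63 in hippocampus.

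Cldn14, Igsf5 and Mrap were dimmer than the median gene but brighter than the 95th percentile of the receptor genes on all 11 arrays of each region. The mean level of Cldn14 was -0.35 in cortex and -0.29 in hippocampus, and it passed the array median on 2 of 11 cortex arrays, those of animals 60 and 64, and on 1 of 11 hippocampus arrays, that of animal 64. Igsf5 stood at -0.70 in cortex and -0.95 in hippocampus, and Mrap at -1.01 and -1.06. In the cortex order Cldn14 was brighter than Igsf5 on 11 of 11 arrays and Igsf5 brighter than Mrap on 10 of 11.

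The other 6 genes lay below the 95th percentile of the receptor genes on most or all arrays. Ripply3, at -1.51 in cortex and -1.52 in hippocampus, and Tmprss2, at -1.82 and -1.62, each passed the 95th percentile of the receptor genes on 0 of 11 cortex arrays and on 1 of 11 hippocampus arrays. Sim2 stood at -2.0 and -2.16, Kcne1 at -2.04 and -1.87, Ripk4 at -2.11 and -1.71, and Fam3b at -2.37 and -2.80, and none of these 4 passed that percentile on any of the 22 arrays. Sim2 was brighter than Kcne1 on 6 of 11 cortex arrays, so this pair of neighbours in the order did not differ beyond their spread. Fam3b had the lowest mean level of the 10 in both regions, and its median percentile among the receptor genes was 74.0 in cortex and 65.9 in hippocampus.

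**Figure D1:**
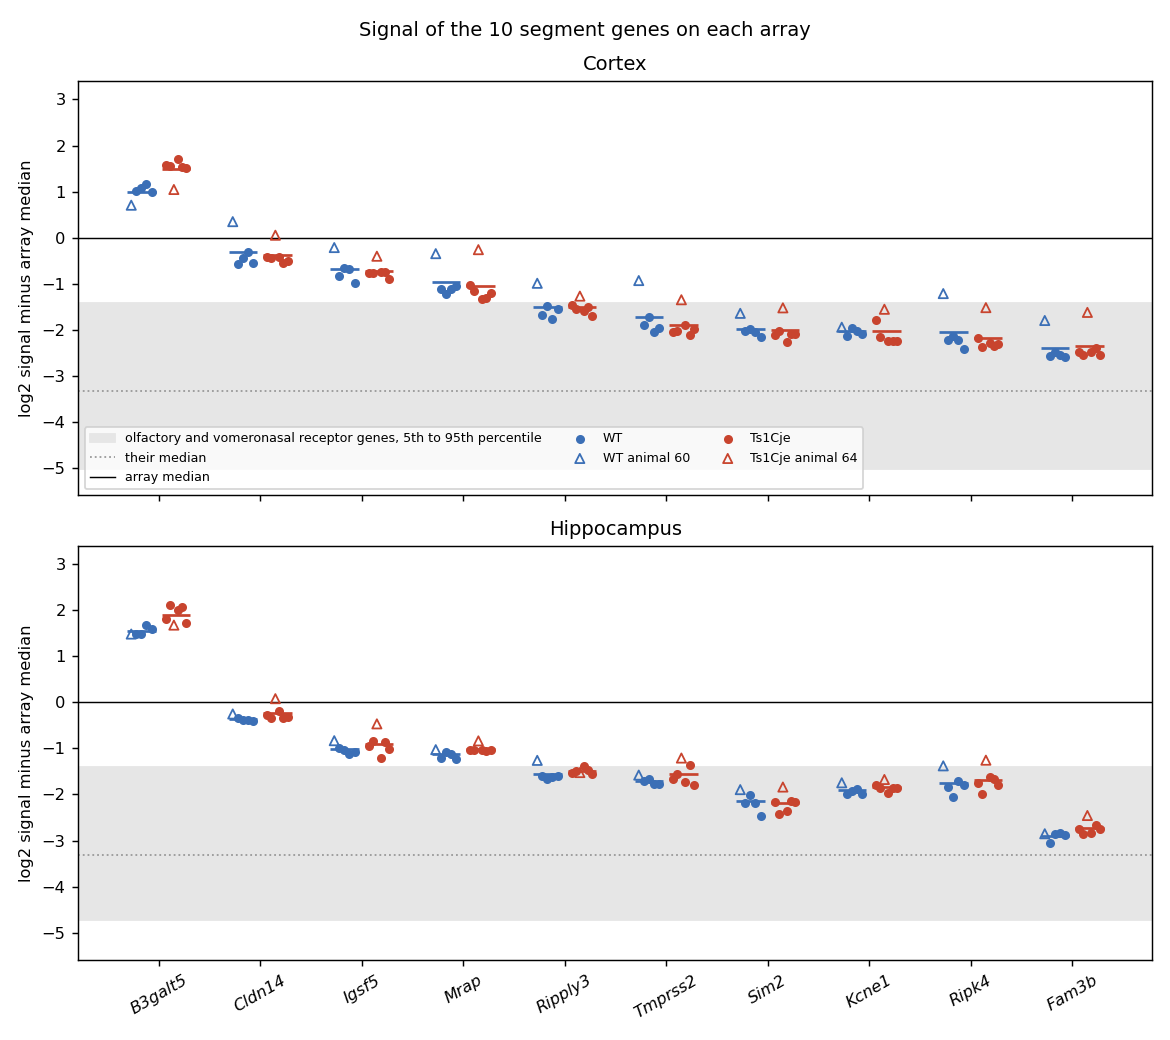
Log2 signal minus the median of the same array for the 10 genes on each array, cortex above and hippocampus below, with WT arrays in blue, Ts1Cje arrays in red, animals 60 and 64 as open triangles and a bar at each group mean. The grey band runs from the 5th to the 95th percentile of the receptor genes, each taken as the median over the arrays of the region. B3galt5 lies above the line at 0 on every array, and Cldn14, Igsf5 and Mrap lie mostly between that line and the band. The other 6 genes lie mostly at the upper part of the band or inside it. Some of their points lie above it, most of them of animals 60 and 64.

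Genotype was compared within each region with limma, which shares the spread between genes, and a gene was called at an adjusted p under 0.05 over all 20239 genes. None of the 10 genes was called in cortex, in hippocampus or in the animal means, for which the 2 arrays of an animal were averaged. The share of all genes called was 0.00494% in cortex, 0.114% in hippocampus and 0.0593% in the animal means. At an unadjusted p under 0.05 the count was 1 of 10 in each of these comparisons, and that gene was B3galt5 each time, where 1.3%, 3.71% and 1.7% of all genes passed. Bulk tissue cannot tell a change in the number of cells of a type from a change of RNA per cell.

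B3galt5 gave WT cortex signals of 8.30, 8.54, 8.62, 8.71 and 8.54 log2 units in animals 60, 62, 65, 95 and 98. In the 6 Ts1Cje cortices its signal ran from 8.61 to 9.25 with a median of 9.12. Of the Ts1Cje arrays 5 of 6 were above every WT array, and the exception was animal 64, whose value lay among the WT values. The difference was 0.51 ± 0.115 log2 units (SE, 95% interval 0.26 to 0.76), a fold of 1.42, with an unadjusted p of 0.000909 and an adjusted p of 0.767 by limma. The interval held 0.585, which is log2 of 3 copies against 2, and did not hold 0.

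In hippocampus the WT signals of B3galt5 were 8.43, 8.43, 8.44, 8.61 and 8.52 for the same animals, and the Ts1Cje signals ran from 8.62 to 9.03 with a median of 8.83. All 6 Ts1Cje arrays were above all 5 WT arrays, by a narrow margin between WT animal 95 and Ts1Cje animal 64. Of all genes tested, 0.38% had groups that did not overlap in this direction in hippocampus, and 0.232% in cortex, where 0 of the 10 genes did. The difference was 0.34 ± 0.0835 (95% interval 0.16 to 0.52), a fold of 1.26, with an adjusted p of 0.497 by limma. Its interval ended below 0.585.

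In the animal means B3galt5 was higher in Ts1Cje by 0.42 ± 0.0869, with an adjusted p of 0.244 by limma. The difference between its effects in hippocampus and cortex was -0.17 ± 0.145 (95% interval -0.47 to 0.13), with an adjusted p of 1.00 by limma. A difference between the regions in this effect was therefore not detected, for B3galt5 or for any of the other 9 genes, and 0 of all 20239 genes were called in that comparison.

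The call for B3galt5 depended on animal 64 and on the fit used. Without animal 64 the cortex difference was 0.60 with an adjusted p of 0.0367, and without animals 60 and 64 it was 0.54 with an adjusted p of 0.00276 by limma. The animal means gave 0.45 and an adjusted p of 0.00325 without both animals. The hippocampus difference was then 0.36 with an adjusted p of 0.286. The shares of all genes called without both animals were 0.158% in cortex, 0.183% in hippocampus and 0.257% in the animal means. When both regions were fitted at once and each animal was a random replicate block, the cortex difference of 0.51 had an adjusted p of 0.0441 by limma. Over the 21 alternatives to the cortex fit its difference stayed between 0.45 and 0.60 and its adjusted p ran from 5.16e-04 to 1.00.

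**Figure D2:**
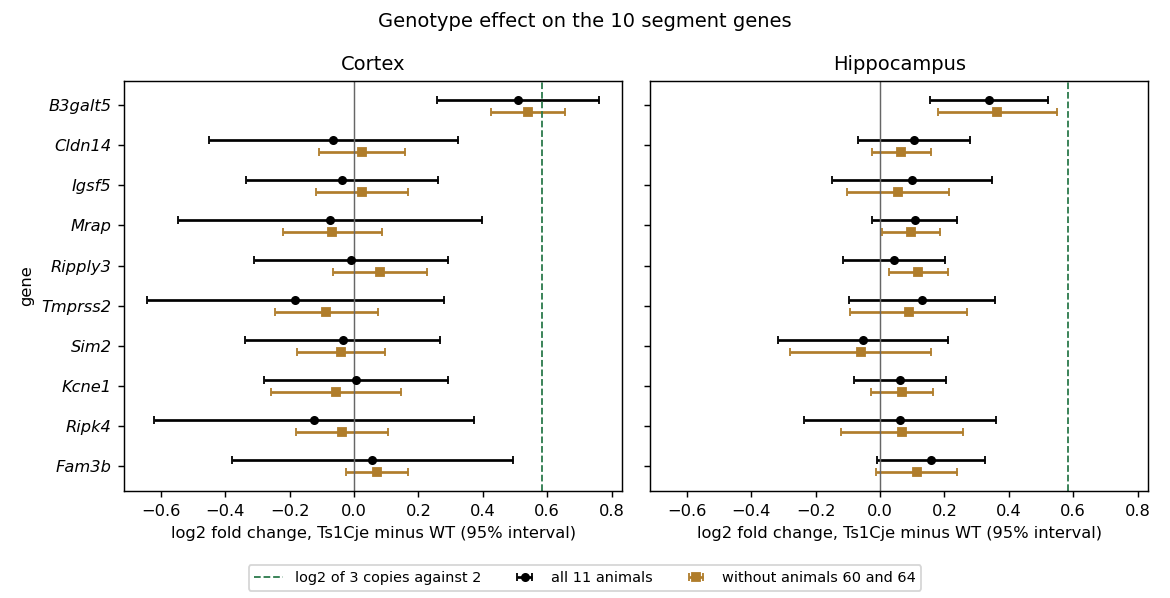
Log2 fold change of Ts1Cje minus WT for each of the 10 genes with its 95% interval from limma, cortex on the left and hippocampus on the right, for all 11 animals (black circles) and without animals 60 and 64 (brown squares), with a dashed line at 0.585 for 3 copies against 2. The B3galt5 intervals lie above 0 in both regions, while for the other 9 genes the intervals over all 11 animals hold 0 and end below the dashed line.

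The remaining 9 genes showed cortex differences of -0.18 to 0.06 with standard errors of 0.130 to 0.226, and 2 of 9 were above 0. In hippocampus their differences were -0.05 to 0.16 with standard errors of 0.0600 to 0.136, and 8 of 9 were above 0. All 9 intervals held 0 and all 9 ended below 0.585 in each region. The highest upper bound in cortex was 0.49, for Fam3b, and in hippocampus 0.36, for Ripk4. An increase of 1.5-fold in signal was therefore outside the interval of each of these genes. The lowest upper bounds were 0.26 in cortex and 0.20 in hippocampus, so the size of increase left inside an interval differed between genes.

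Among the junction genes, Cldn14 gave 7.95, 6.95, 7.12, 7.22 and 6.99 in the WT cortices and 6.99 to 7.62, median 7.12, in the Ts1Cje cortices. Animal 60 was the highest WT and animal 64 the highest Ts1Cje array, and the groups overlapped. Its difference was -0.06 ± 0.176 in cortex and 0.11 ± 0.0801 in hippocampus. Igsf5 gave 7.38, 6.70, 6.90, 6.85 and 6.57 in WT cortex and 6.72 to 7.16, median 6.79, in Ts1Cje cortex, a difference of -0.04 ± 0.136. In hippocampus its difference was 0.10 ± 0.114, and its groups overlapped in both regions.

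Mrap gave 7.25, 6.42, 6.34, 6.42 and 6.51 in WT cortex and 6.20 to 7.30, median 6.41, in Ts1Cje cortex. The highest array of each group was again that of animal 60 or 64, and the other 9 arrays of both genotypes lay between 6.20 and 6.52. The differences for Mrap were -0.07 ± 0.216 in cortex and 0.11 ± 0.0600 in hippocampus. Kcne1 differed by 0.01 ± 0.130 in cortex and 0.06 ± 0.0656 in hippocampus, where WT arrays spanned 4.93 to 5.20 and Ts1Cje arrays 4.97 to 5.27. The partners of these proteins were measured too: Mc2r had a mean level of -3.16 in cortex and -3.63 in hippocampus, Kcnq1 -1.10 and -1.04, and neither was called.

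Tmprss2 had the lowest cortex difference of the 10 genes, -0.18 ± 0.211, with WT signals of 6.67, 5.63, 5.83, 5.49 and 5.59 and Ts1Cje signals of 5.43 to 6.21, median 5.59. The WT mean rested on animal 60, and without animals 60 and 64 the difference was -0.09. In hippocampus Tmprss2 differed by 0.13 ± 0.104. Fam3b had the highest hippocampus difference of the 9 genes, 0.16 ± 0.0774, with WT signals of 4.09, 3.88, 4.10, 4.10 and 4.05 and Ts1Cje signals of 4.06 to 4.49, median 4.16. Of the Ts1Cje arrays 4 of 6 were above every WT array, and the unadjusted p was 0.0639 by limma. Fam3b differed by 0.06 ± 0.199 in cortex.

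Ripk4 differed by -0.12 ± 0.226 in cortex and 0.06 ± 0.136 in hippocampus, with 1 of 6 Ts1Cje arrays above every WT array in hippocampus and 0 of 6 in cortex. Sim2 differed by -0.04 ± 0.138 in cortex and -0.05 ± 0.121 in hippocampus and was the 1 gene of the 10 with a hippocampus difference below 0. Its dimerisation partner Arnt2, at 3.59 above the array median in cortex and 3.32 in hippocampus, differed by -0.01 and -0.03. Ripply3 differed by -0.01 ± 0.138 in cortex and 0.04 ± 0.0729 in hippocampus, and 0 of 6 Ts1Cje arrays were above every WT array in either region. In hippocampus this rested on WT animal 60, at 5.69. The other WT arrays lay at 5.29 to 5.33, below the Ts1Cje range of 5.37 to 5.54.

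Without animals 60 and 64 the standard errors of the 9 genes in cortex fell to between 0.0429 and 0.0908, and their differences ran from -0.09 to 0.08. In hippocampus their differences then ran from -0.06 to 0.12. Mrap, with an unadjusted p of 0.0379, and Ripply3, with 0.0160, were then under 0.05 in hippocampus, and none of the 9 was called by limma, with adjusted p values of 0.529 or above. The share of all genes with an unadjusted p under 0.05 was 8.37% in that comparison. The intervals of 7 of the 9 genes held 0 there. Ripply3 was the 1 gene of the 9 whose groups did not overlap, with Ts1Cje higher. The same held for 304 of all 20239 genes.

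Both animals shifted the dim end of the array and the listed genes together. On the cortex arrays of animals 60 and 64 the receptor genes lay a median of 0.79 and 0.57 log2 units above the other arrays of their group, and the 9 dim genes lay a median of 0.83 and 0.62 above them. On both of these arrays 9 of the 9 dim genes had the highest signal of their group, whereas B3galt5 had the lowest. In hippocampus the receptor genes of the same animals were shifted by 0.31 and 0.37 and the 9 genes by 0.22 and 0.35. The part of these shifts in each gene's genotype difference was not tested beyond the fits without both animals. Over the receptor genes themselves, 237 of 1294 had a cortex difference above 0 and 881 of 1294 a hippocampus difference above 0, with medians of -0.10 and 0.06. Without both animals these were 451 of 1294 with a median of -0.036 in cortex and 859 of 1294 with 0.06 in hippocampus.

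**Figure D3:**
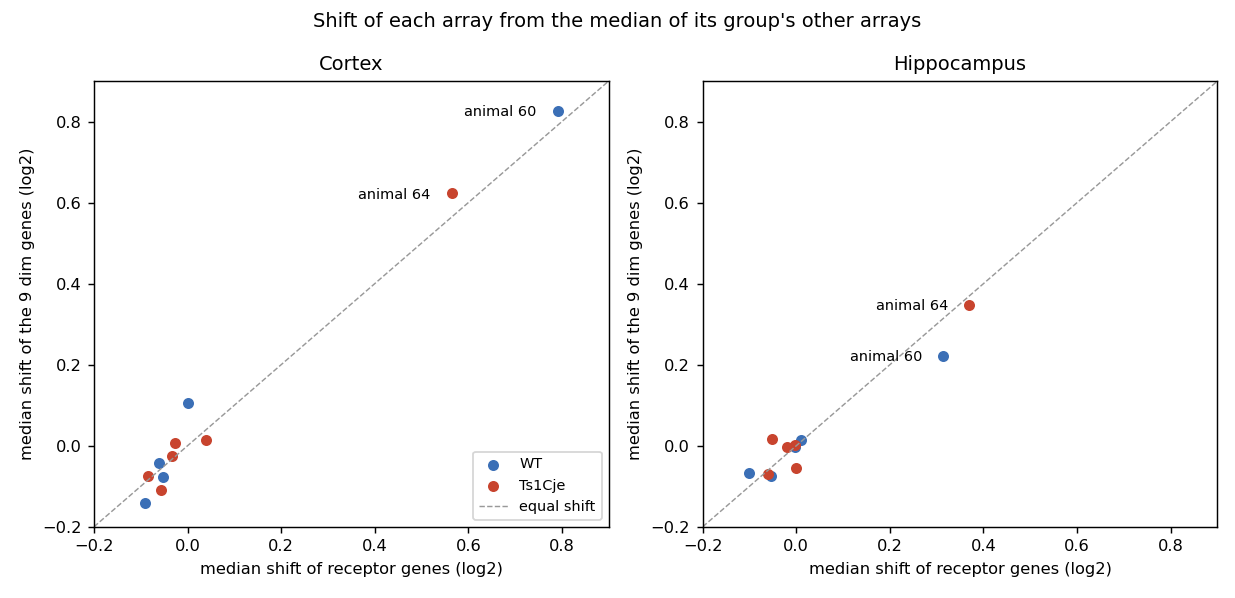
Median shift of the 9 dim genes against that of the receptor genes on each array, both taken from the median of the other arrays of the same genotype and region, cortex on the left and hippocampus on the right, with a dashed line of equal shift. Animals 60 and 64 stand at 0.79 and 0.57 along the receptor axis in cortex and at 0.31 and 0.37 in hippocampus, near the line, while the other arrays lie around 0.

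The members were set beside the other 63 measured genes of the segment. Of these, 43 were brighter than the median gene over all arrays, and 43 of 43 were higher in Ts1Cje in each region, with medians of 0.43 in cortex and 0.36 in hippocampus. B3galt5, at 0.51 and 0.34, lay within their range. This split used the mean over both genotypes, so a gene raised in Ts1Cje could enter the bright set through those arrays. In WT, 42 of the 43 stood above the array median in cortex and 41 in hippocampus. The directions and calls of the bright and dim sets are therefore not independent of the split. The other 20 were dimmer than the median gene, and their median difference was 0.04 in cortex, with 11 of 20 above 0, and 0.11 in hippocampus, with 19 of 20 above 0. Without animals 60 and 64 the dim genes had a median of 0.097 with 15 of 20 above 0 in cortex and 0.092 with 16 of 20 in hippocampus. The 10 listed genes had medians of -0.04 and 0.10, against -0.003 and -0.006 for all genes tested, of which 48.5% and 46.3% were above 0. Leaving out 1 animal took the cortex median of the 10 genes from -0.12, without animal 64, to 0.092, without animal 60, and the hippocampus median from 0.042, without animal 64, to 0.14, without animal 60. Without both animals the medians were -0.0063, with 5 of 10 above 0, and 0.079, with 9 of 10.

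Of the 43 bright genes of the segment, 0 were called by limma in cortex and 17 in hippocampus, and of the 20 dim genes 0 in either region. Without animals 60 and 64 the calls were 24 of 43 bright and 2 of 20 dim genes in each region. With all animals, leaving out single animals took the count over all genes tested in hippocampus from 23 to between 1, without any of animals 61, 62, 65, 87, 97 and 98, and 35, without animal 64.

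Over the 73 segment genes the difference and the WT level went together with a Pearson r of 0.62 in cortex and 0.64 in hippocampus (Spearman rho 0.63 and 0.67). This is a description across genes of the same arrays, which share every library and are not independent replicates. Within the WT level range of the 9 dim genes there were 18 other segment genes in cortex, with a median of 0.01 and 9 above 0, and 16 in hippocampus, with a median of 0.08 and 15 above 0. The range held, once animals 60 and 64 were left out, 16 others in each region, with a median of 0.085 and 11 above 0 in cortex, 0.080 and 12 above 0 in hippocampus, and 1 called in each.

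**Figure D4:**
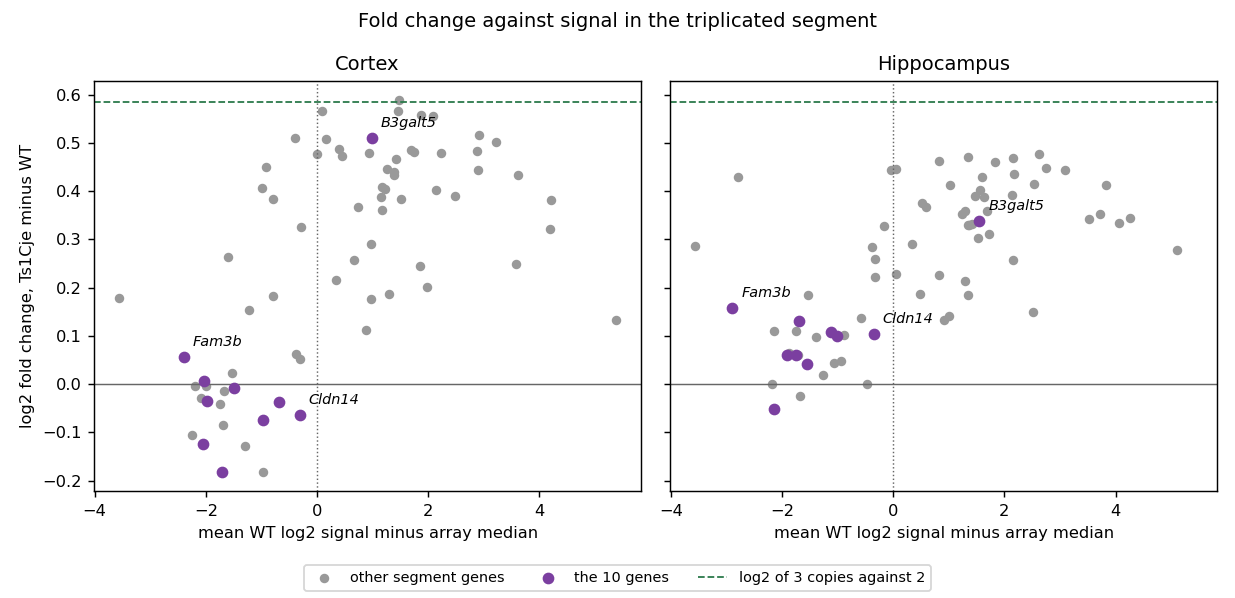
Log2 fold change of Ts1Cje minus WT against the mean WT level above the array median for the 73 measured segment genes, cortex on the left and hippocampus on the right, with the 10 listed genes in purple and a dashed line at 0.585. B3galt5 sits among the brighter genes at 0.51 and 0.34, and the other 9 listed genes sit left of the dotted median line, from -0.18 to 0.06 in cortex and from -0.05 to 0.16 in hippocampus.

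Genes next to the members on the chromosome were described by the same fits. Mrap lies between Mis18a, a centromere loading factor, and Urb1, a ribosome biogenesis gene. Mis18a, at a mean level of -0.68 in cortex, differed by 0.45 ± 0.161 there and by 0.29 ± 0.102 in hippocampus. Urb1, at 0.94, differed by 0.37 ± 0.104 and by 0.37 ± 0.0542, with adjusted p values by limma of 1.00 in cortex and 0.0374 in hippocampus. Mrap and Mis18a thus both had mean levels under the array median in both regions. Their WT levels were near each other in cortex, at -0.97 for Mrap and -0.92 for Mis18a. In WT hippocampus they were -1.13 for Mrap and -0.38 for Mis18a. Differences were -0.07 and 0.11 for Mrap and 0.45 and 0.29 for Mis18a, and the contrast between this pair was not tested.

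Kcne1 lies between Fam243 and Rcan1, an inhibitor of calcineurin. Rcan1 was higher in Ts1Cje by 0.44 ± 0.0719 in cortex and rose by 0.39 ± 0.0456 in hippocampus, where its adjusted p was 0.0209 by limma. In cortex its adjusted p was 0.216, and 0.0014 with the random replicate block. Fam243, at -2.31 in cortex, differed by -0.11 and 0.001. The hippocampus call of Rcan1 was lost on leaving out any of 7 animals (61, 62, 65, 87, 95, 97 or 98), with adjusted p values up to 0.0964, and that of Urb1 on leaving out any of 10, all but animal 64, with values up to 0.136. In a single fit of both regions Urb1 was not called in hippocampus, with an adjusted p of 0.1703, nor with the random replicate block, with 0.2855.

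Hlcs, the biotin ligase gene between Sim2 and Ripply3, differed by 0.48 ± 0.101 in cortex and 0.26 ± 0.0649 in hippocampus, and Pigp, on the other side of Ripply3, by 0.22 and 0.19. Chaf1b, a chromatin assembly gene next to Cldn14, differed by 0.26 and 0.19. Around B3galt5 and Igsf5, which are neighbours, Sh3bgr differed by -0.04 and 0.06 and Itgb2l by -0.18 and 0.04. Fam3b and Tmprss2 lie on either side of Mx2, an interferon-induced GTPase gene, which differed by -0.005 in cortex and 0.43 ± 0.111 in hippocampus, where its groups did not overlap and its adjusted p was 0.611 by limma. Mx1, on the other side of Fam3b, differed by 0.18 and 0.29, and Prdm15, beyond Ripk4, by 0.26 and 0.14. Mx2 was dim, at a WT level of -2.79 in hippocampus. Groups also did not overlap, with Ts1Cje higher, for Hlcs, Prdm15 and Rcan1 in both regions and for Urb1 in hippocampus. Over all genes tested this held for 0.232% in cortex and 0.38% in hippocampus.

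Without animals 60 and 64 more of these neighbours were called by limma. In cortex Mis18a (0.48, adjusted p 0.0280), Urb1 (0.38, 0.00549), Rcan1 (0.41, 0.0260) and Hlcs (0.41, 0.0172) passed, and in hippocampus Mis18a (0.39, adjusted p 0.0331), Urb1 (0.33, 0.0375) and Rcan1 (0.40, 0.00638). Mis18a, whose level lay below the array median, was thus called in both regions in these fits, where Mrap differed by -0.07 and 0.10. Array weights also called Mis18a, Urb1, Rcan1, Hlcs and Pigp in cortex, and Mis18a in hippocampus (adjusted p 0.0245 by limma). A single fit of both regions called Hlcs (adjusted p 0.0192) and Rcan1 (0.000625) in cortex by limma.

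Lists of related genes and of cell types were described in the same fits. Of 18 claudins measured outside the listed gene, 0 were called in either region, 8 of 18 were above 0 in cortex and 5 of 18 in hippocampus, and Cldn11, of myelin, and Cldn5, of the blood vessel wall, were the brightest, at 3.17 and 2.60 above the array median in WT cortex. Of 40 relatives and partners of the members, 0 were called, with 15 above 0 in cortex and 23 in hippocampus. Of 37 general epithelial genes 0 were called, with medians of -0.08 and -0.01. Their mean level was -1.27 in WT cortex and -1.35 in Ts1Cje cortex, and -1.13 and -1.12 in hippocampus, with Ovol2 the brightest in cortex and Dsp, which hippocampal granule cells also express, in hippocampus. With animals 60 and 64 left out, the epithelial medians were -0.035, with 13 of 37 above 0 where 5 of 37 had been, and -0.028, and 11 of 18 claudins in cortex and 7 of 18 in hippocampus were above 0.

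The choroid plexus, an epithelium that can be cut with the hippocampus, had 13 marker genes measured, of which 0 of 13 were above 0 in the hippocampus comparison, with a median of -0.22 and 0 called. The mean level of the list ran from 1.37 to 1.83 in the 5 WT hippocampi and from 1.15 to 1.83 in the 6 Ts1Cje hippocampi, and Ttr, its defining gene, stood at 6.05 and 5.89 above the array median. In cortex the list mean was -0.29 in both groups, and 6 of 13 genes were above 0. In the hippocampus comparison 1 of 10 ependymal genes and 3 of 10 meningeal genes were above 0, with medians of -0.09 for both lists, and 0 were called. Adipose genes had 5 of 8 and erythroid genes 3 of 3 above 0, with 0 called. On leaving out animals 60 and 64, 1 of 13 choroid plexus genes was above 0 in hippocampus, with a median of -0.16, and 2 of 3 erythroid genes. What these cells contribute to the values of the 10 genes was not tested.

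Between regions, after each array was centred on its median, 4 of the 10 genes were called by limma, where 41.4% of all genes were called. B3galt5 was higher in hippocampus by 0.49 ± 0.0752 (adjusted p 1.86e-05) and Ripk4 by 0.39 ± 0.134 (adjusted p 0.0224). Fam3b was lower in hippocampus, at -0.43 ± 0.107 (adjusted p 0.00255), as was Igsf5, at -0.25 ± 0.0885 (adjusted p 0.0260). The other 6 genes differed by -0.17 (Sim2) to 0.18 (Tmprss2). The regions were extracted with different kits, NucleoSpin RNA L for cortex and RNA II for hippocampus, so region and kit cannot be told apart.

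These regional directions are relative to the array median. On the deposited values, where the median of all genes was 0.63 lower in hippocampus, B3galt5 was at -0.14 and Ripk4 at -0.24, so both changed sign, while Fam3b was at -1.06 and Igsf5 at -0.88. With the animal as a replicate block, Kcne1 (0.17, adjusted p 0.0138 with a fixed block and 0.0123 with a random block) and Sim2 (-0.17, adjusted p 0.0064 and 0.0264) were called as well. The main fit had no such block. Over all genes, 10925 of 20239 were called with the fixed block and 10935 with the random block. The call of Ripk4 was lost on leaving out animal 62, 87, 94, 95 or 98 and that of Igsf5 without 65, 87 or 95, with adjusted p values up to 0.0643. Leaving out animal 60 made Tmprss2 a call (0.26, adjusted p 0.0242), and leaving out 64 did so for Kcne1 (0.20, adjusted p 0.00555). Those fits called 9633 and 9723 of all genes, against 8379 in the main fit.

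The genes whose pattern was most like that of the 2 brightest members were sought over the 22 arrays, after each array was centred and the mean of each genotype and region removed. For B3galt5 these were Gpr63, with a Pearson r of 0.89, Agmo, with 0.88, and Pcdh20, with 0.88. Without animals 60 and 64 the same pairs gave 0.75, 0.63 and 0.55 over 18 arrays and ranked 13, 105 and 290 among all genes, and the most like gene was then Adamts20, with 0.80. For Cldn14 they were Slc34a1, with 0.98, 1700006J14Rik, with 0.97, and Nr0b1, with 0.97, and 0.77, 0.61 and 0.63 without both animals, at ranks 12, 181 and 134, when Ngfr was the most like, with 0.88. The named genes are thus the most alike only with animals 60 and 64 included. These values describe arrays that share the shifts of animals 60 and 64.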

How the data were processed

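The deposited values are log2 signals processed with RMA (background correction, normalization and probe summary) per the submitters' processing notes. RMA's version, its probe definition and whether it was run over both regions at once are not stated in the labels. Features carry Entrez gene numbers and were named through GEO's platform annotation and the RefSeq gene table of GRCm38.p6: 20239 of 21225 had 1 symbol and were tested, and 986 had none. Fits used lmFit and eBayes of limma 3.58.1 under R 4.3.3, two-sided with Benjamini-Hochberg adjustment over the 20239 genes and no filter on dim genes, and were tested on simulated data. The simulated noise was independent between arrays and held no shift like those of animals 60 and 64. It therefore does not check the fits where such shifts are present. The number of arrays limits the precision. Animal numbers come from the titles; for both arrays of WT animal 60 the description gives 61, the number of a Ts1Cje animal in the titles, while the genotype label is WT. Cortex and hippocampus arrays are paired by that number, and after removal of group means a pair's median r was 0.265 (0.0523 to 0.761). The highest r was that of animal 64. For 2 of 11 animals, 64 and 98, the cortex array was most like the hippocampus array of the same animal. The members and lists were chosen with earlier results of these data known. Named genes were the 10 members, their nearest measured neighbours, called or brightest list genes, textbook partners and the 3 genes most like each of the 2 brightest members. Alternatives covered the prior, array weights, quantile normalization, centring, dim genes, the features tested, the threshold, pairing by animal and each animal left out.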

Additional observations from a re-analysis of the deposited data

Results flagged for a closer look

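In groups of 5 or 6 arrays, a signal was singled out when its gap to the nearest of the others was a large share of the range of the group. Of 40 combinations of a listed gene and a group, 16 held such an array, where chance gives about 1 in 20. Animal 64 accounted for 10, animal 60 for 5, and 1 came from another animal.

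In Ts1Cje cortex, animal 64 was the highest array for Sim2 (6.04 log2 units, others up to 5.54), Tmprss2 (6.21, up to 5.64), Fam3b (5.94, up to 5.15), Cldn14 (7.62, up to 7.13), Igsf5 (7.16, up to 6.80), Ripk4 (6.04, up to 5.38) and Mrap (7.30, up to 6.52). For B3galt5 it was the lowest, at 8.61 against 9.07 or more. In Ts1Cje hippocampus it was the highest for Cldn14 (7.02, up to 6.73) and Mrap (6.11, up to 5.89).

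In WT cortex, animal 60 was the highest for Fam3b (5.80, others up to 5.08), Cldn14 (7.95, up to 7.22), Ripk4 (6.38, up to 5.42) and Mrap (7.25, up to 6.51), and in WT hippocampus for Ripply3 (5.69, up to 5.33). The remaining case was Fam3b in WT hippocampus, where animal 62 was the lowest at 3.88 against 4.05 to 4.10.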

How the results depend on the processing

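The count of called members in hippocampus stayed at 0 of 10 under all 21 alternatives, and that for unequal genotype effects in the 2 regions at 0 under all 20. In cortex it was 0, and 1 (B3galt5) with array weights, quantile normalization, the random replicate block and without animals 60 and 64, and 0 to 1 on leaving out 1 animal, where animal 64 gave the 1. In the animal means it was 0, and 1 with array weights, quantile normalization and without animals 60 and 64, again 0 to 1 on leaving out 1 animal. Between regions it was 4, and 7 with array weights or quantile normalization, 8 uncentred, 2 of the members left when the dimmest genes were dropped, 8 without animals 60 and 64, and 2 to 5 on leaving out 1 animal. With the replicate block, Kcne1 and Sim2 joined these calls. The genotype fits with the block were also single fits of both regions. In them B3galt5 and Rcan1 were called in cortex and Urb1 lost its hippocampus call. No other call among the members and their neighbours differed there from the main fits. A single fit without the block also called Rcan1 and lost Urb1, so these 2 changes were not particular to the block. It called Hlcs in cortex, which the fit with the block did not. Over all genes the cortex count was 1, 13 with quantile normalization, 23 in a single fit, 32 without animals 60 and 64 and 50 with array weights. Between regions it was 8379 of 20239, and 13685 with array weights, 9681 with quantile normalization, 19285 uncentred and 13253 without animals 60 and 64. It was 6246 when the dimmest genes were dropped, and 7378 to 9723 on leaving out 1 animal. Each alternative with more than 4 called members between regions also called more genes over all than the main fit. Among the alternatives the 2 counts did not keep the same order. Array weights gave 7 members with 13685 genes, and leaving out animals 60 and 64 gave 8 members with 13253.

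Signs that changed in cortex were those of Kcne1 (-0.081 with weights, -0.000757 centred, -0.056 without both animals), Ripply3 (0.099 with weights, 0.044 with quantiles, 0.080 without both), Igsf5 (0.014 and 0.025), Cldn14 (0.025 without both), Sim2 (0.032 with quantiles), Mx2 (0.10, 0.068, 0.16) and Sh3bgr (0.059, 0.00667, 0.055). In hippocampus they were Fam243 (-0.000389 with weights, -0.029 with quantiles) and Itgb2l (-0.00572 without both). Between regions they were Ripply3 (0.043 with weights, 0.041 without both) and Mrap (0.086, 0.070) and, uncentred, B3galt5 (-0.14), Kcne1 (-0.46), Tmprss2 (-0.45), Cldn14 (-0.57) and Ripk4 (-0.24). On leaving out 1 animal the cortex ranges that crossed 0 were Cldn14 -0.15 to 0.11, Fam243 -0.20 to 0.00236, Fam3b -0.089 to 0.22, Igsf5 -0.12 to 0.089, Kcne1 -0.089 to 0.053, Mrap -0.23 to 0.091, Mx2 -0.076 to 0.084, Ripk4 -0.25 to 0.094, Ripply3 -0.082 to 0.13, Sh3bgr -0.15 to 0.17, Sim2 -0.13 to 0.058 and Tmprss2 -0.29 to 0.024. In hippocampus they were Fam243 -0.039 to 0.043, Itgb2l -0.047 to 0.10, Ripk4 -0.027 to 0.16, Sh3bgr -0.012 to 0.095 and Sim2 -0.14 to 0.013, and between regions Mrap -0.094 to 0.00812 and Ripply3 -0.040 to 0.014. The median of the 10 members in cortex ran from -0.12 to 0.092 on leaving out 1 animal. The cause was not tested.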
